A study of Mus musculus with 3 samples.

Results

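The genes followed here are the mouse genes Alas1, Alad, Uros, Urod, Cpox, Ppox and Fech, which encode enzymes of heme synthesis, and Abcb6, which encodes a transporter linked to porphyrins. They were chosen by name, for their place in the pathway and not by a rule on their values, though earlier results of these data were known. They are 8 of the 55421 gene identifiers counted. All 8 were present in the files under a single identifier each. They were measured in dissociated liver cells of 3 mice, all wild-type, with 1 mouse and 1 single-cell library for each group. The diet of every mouse, the control included, had been low in iron (2 to 6 ppm, an iron-deficient diet) during 1 week. The IDD mouse received nothing more. The IDD+HTF mouse also received 10 mg of holo-transferrin, the iron-loaded plasma carrier, into a tail vein, with the interval to collection not given in the sources used here. The IDD+HID mouse was switched for 18 h to a diet with 2% carbonyl iron. No mouse on an iron-sufficient diet was among the 3 libraries. Mouse, treatment and library cannot be told apart, so no p-value is given for any difference between groups, and every interval below covers counting error only.

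Heme is an iron-carrying ring made by nearly all nucleated cells, and the liver is its main site of synthesis outside the erythroid cells because hepatocytes load it into cytochrome P450 enzymes. Synthesis starts in the mitochondrion, where ALAS1 joins glycine and succinyl-CoA in the rate-limiting step, continues in the cytosol through ALAD, UROS and UROD, and returns to the mitochondrion for CPOX, PPOX and FECH, the last of which inserts iron. In liver, Alas1 transcription is known to be held down by heme itself and raised by drug-sensing and fasting signals.

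The upstream sequences of Urod and Cpox are shown because these members were past 1.5-fold in IDD+HID over IDD+HTF under both scalings described below. Each is the 250 bases before the gene's start, 5′ to 3′ on the gene's strand, from RefSeq (GRCm38.p6), at chr4:116994414-116994663 for Urod and chr16:58669958-58670207 for Cpox. Capitals mark matches, on either strand, to a GC box (GGGCGG) or a CCAAT box (CCAAT).
Urod: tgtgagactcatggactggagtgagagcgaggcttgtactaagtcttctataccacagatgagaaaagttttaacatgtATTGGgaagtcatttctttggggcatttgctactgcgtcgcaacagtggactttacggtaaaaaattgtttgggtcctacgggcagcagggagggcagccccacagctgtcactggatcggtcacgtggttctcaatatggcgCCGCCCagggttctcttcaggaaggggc
Cpox: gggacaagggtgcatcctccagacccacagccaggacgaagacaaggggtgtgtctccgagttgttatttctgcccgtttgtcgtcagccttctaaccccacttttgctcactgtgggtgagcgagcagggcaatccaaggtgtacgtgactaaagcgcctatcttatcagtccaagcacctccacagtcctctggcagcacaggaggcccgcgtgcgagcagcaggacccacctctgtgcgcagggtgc
Urod held 1 GC box, 28 bases before the start, and 1 CCAAT box, 171 bases before it. Cpox held neither, nor any of the other motifs searched: the motif of the factor NRF1, a cyclic AMP response element (TGACGTCA) and a TATA box (TATAAA). Of 27025 promoters of the same length, 33% held a GC box, 34.5% a CCAAT box, 13% a TATA box, 3.87% an NRF1 motif and 1.6% a cyclic AMP response element. Of the other members, Alad held 2 GC boxes and 2 CCAAT boxes, and Ppox 4 CCAAT boxes. The upstream window of Fech was not read out, so no count of matches exists for it. The windows of Alas1, Uros and Abcb6 lay inside annotated GENCODE exons for 250, 196 and 250 of their 250 bases, so their matches are not given. These are letter matches only, and binding of a factor was not measured.

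In the GENCODE M21 annotation (GRCm38) all 8 are protein-coding. Alas1 lies on chromosome 9 (106233455 to 106248654, minus strand), Alad on chromosome 4 (62509169 to 62519918, minus) and Urod on the same chromosome (116989965 to 116994413, minus). Uros lies on chromosome 7 (133686243 to 133710072, minus), Cpox on chromosome 16 (58670292 to 58717636, plus) and Fech on chromosome 18 (64452914 to 64490251, minus). Ppox (171275990 to 171281186, minus) and Abcb6 (75171717 to 75180392, minus) lie on chromosome 1. Of them, 5 overlap another annotated gene, which makes their counts less certain, since the strand setting of the counting is not given in the sources used here. Alas1 overlaps 4930500F10Rik, Uros overlaps Bccip, Cpox overlaps Gpr15 and Ppox overlaps B4galt3, each on the other strand, and Abcb6 overlaps Gm29253 on its own strand. Alad, Urod and Fech overlap none.

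The cells were a mixture of a small share of the hepatocyte suspension with the non-parenchymal suspension, so shares of cell types reflect that mixing. After filtering, 1311, 3203 and 3538 cells remained in IDD, IDD+HTF and IDD+HID, and the 3 cell sets shared 1 barcode for each pair of libraries. Hepatocyte-like cells, in which all 10 hepatocyte markers were detected in each library, numbered 245, 1032 and 260 and held 662876, 2794803 and 988848 UMIs (unique molecular identifiers, each standing for 1 captured RNA molecule). Levels are given as CPM, the usual depth-scaled unit, from the UMIs of a gene relative to all UMIs of its class in that library. The makeup of the class differed between libraries: ribosomal RNA and repeat genes took 29.8%, 32.1% and 8.82% of its UMIs, and the median number of genes per cell was 478, 511.5 and 722. The median log2 ratio over all measured genes was 0.97 in IDD+HID over IDD and over IDD+HTF, but -0.02 in IDD+HTF over IDD. Member and pathway ratios over the whole class that involve IDD+HID are therefore given also after scaling by the median of ratios, which subtracts 0.90 and 0.93 from these log2 ratios (and -0.03 for IDD+HTF over IDD). The 10 sinusoidal endothelial markers summed in hepatocyte-like cells to 27.2, 261 and 1042 CPM and the 10 Kupffer markers to 43.7, 144 and 453 CPM, in the order IDD, IDD+HTF, IDD+HID. Of these, Stab2, Oit3, Kdr, Stab1 and Flt4 and also Vsig4, Timd4 and Folr2 were at 0 in IDD. The part that RNA of those cells played in the results was not tested.

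Alas1, the rate-limiting enzyme, was almost unread in the hepatocytes of the iron-deficient mouse and was well read in both mice given iron. It had 4 UMIs in 245 hepatocyte-like cells of IDD, 195 UMIs in 1032 cells of IDD+HTF and 147 UMIs in 260 cells of IDD+HID. These counts were 6.03 CPM (1.64 to 15.4), 69.8 CPM (60.3 to 80.3) and 149 CPM (126 to 175), so the 3 intervals did not overlap. Alas1 was 11.6-fold higher in IDD+HTF than in IDD (95% exact conditional binomial interval 4.44 to 42.9), and 11.8-fold higher after median-ratio scaling. It was 24.6-fold higher in IDD+HID than in IDD (9.42 to 91.6), and 13.2-fold higher after median-ratio scaling. The order of the 2 iron-treated libraries was not settled by the scaling: IDD+HID was 2.13-fold above IDD+HTF (1.71 to 2.65) on class totals but 1.12-fold after median-ratio scaling. The Alas1 level of IDD hepatocytes was no higher than that in the same library's droplets of 100 or fewer UMIs, which hold free RNA and no cell (6.37 CPM, 4.08 to 9.47). In the other libraries the hepatocyte level stood above the droplet level, which was 17.9 and 17.3 CPM in them. There is no replicate mouse against which to check any of these folds.

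The cytosolic enzymes did not share the Alas1 pattern between IDD and IDD+HTF. Alad, which forms porphobilinogen, had 44, 131 and 118 hepatocyte UMIs in IDD, IDD+HTF and IDD+HID, or 66.4 CPM (48.2 to 89.1), 46.9 CPM (39.2 to 55.6) and 119 CPM (98.8 to 143). The IDD+HTF level was thus the lowest, at 0.706-fold of IDD (0.498 to 1.02), and its interval overlapped that of IDD. Alad was 1.80-fold higher in IDD+HID than in IDD (1.26 to 2.60) on class totals, and 0.966-fold after median-ratio scaling, where the direction turned. Urod, which removes carboxyl groups from uroporphyrinogen, had 15, 53 and 62 UMIs, or 22.6 CPM (12.7 to 37.3), 19.0 CPM (14.2 to 24.8) and 62.7 CPM (48.1 to 80.4). IDD and IDD+HTF overlapped (0.838-fold, 0.465 to 1.6), and IDD+HID was 2.77-fold above IDD (1.56 to 5.24), or 1.49-fold after median-ratio scaling. Uros, which closes the porphyrin ring, had only 7, 20 and 11 UMIs, or 10.6, 7.16 and 11.1 CPM with overlapping intervals (4.25 to 21.8, 4.37 to 11.1 and 5.55 to 19.9).

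Among the mitochondrial enzymes, Cpox was the member that followed Alas1 in the high-iron library under both scalings. Cpox had 26, 139 and 141 UMIs, or 39.2 CPM (25.6 to 57.5) in IDD, 49.7 CPM (41.8 to 58.7) in IDD+HTF and 143 CPM (120 to 168) in IDD+HID. The first 2 intervals overlapped (1.27-fold, 0.830 to 2.01) and the third lay above both. IDD+HID was 3.64-fold above IDD (2.38 to 5.76) and 2.87-fold above IDD+HTF (2.25 to 3.65), which became 1.95-fold and 1.51-fold after median-ratio scaling. Fech, the ferrochelatase that inserts iron, had 20, 119 and 71 UMIs, or 30.2 CPM (18.4 to 46.6), 42.6 CPM (35.3 to 51.0) and 71.8 CPM (56.1 to 90.6). Fech was 1.41-fold higher in IDD+HTF than in IDD (0.874 to 2.39) and 2.38-fold higher in IDD+HID than in IDD (1.43 to 4.13), or 1.28-fold after median-ratio scaling. Against IDD+HTF, the IDD+HID level of Fech was 1.69-fold (1.24 to 2.28) on class totals and 0.887-fold after median-ratio scaling, where the direction turned.

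Ppox, the penultimate enzyme, had 5, 12 and 9 UMIs, or 7.54, 4.29 and 9.10 CPM with overlapping intervals (2.45 to 17.6, 2.22 to 7.50 and 4.16 to 17.3). Abcb6 had 3, 9 and 1 UMIs, or 4.53 CPM (0.933 to 13.2), 3.22 CPM (1.47 to 6.11) and 1.01 CPM (0.0256 to 5.63). Differences of Uros, Ppox and Abcb6 between libraries were not detectable at this depth, since each fold interval in hepatocyte-like cells held 1.

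**Figure D1:**
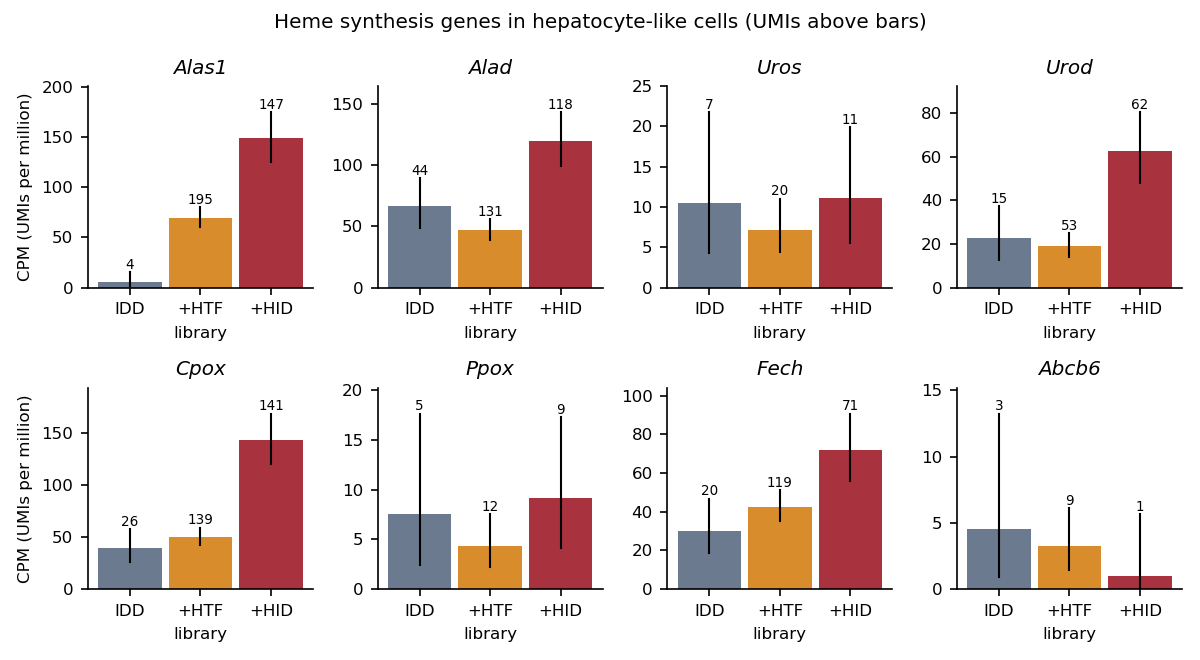
Level of each of the 8 genes in hepatocyte-like cells, in CPM of the class, with 1 panel a gene and 1 bar a library (IDD, IDD+HTF, IDD+HID); lines are exact Poisson 95% intervals and the number above each bar is the UMI count. Alas1 stood at 6.03, 69.8 and 149 CPM, and Uros, Ppox and Abcb6 rested on at most 20 UMIs a library. Each panel has its own axis, so bars are not compared between genes.

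Of the 8 members, 5 (Alas1, Alad, Urod, Cpox and Fech) had the 50 UMIs required of a gene in each pair of libraries, and the others were not counted. In IDD+HTF over IDD, 1 of the 5 (Alas1) was at least 1.5-fold higher and 0 were at least 1.5-fold lower, under either scaling. Of all measured genes, 18.9% were higher and 14.2% lower by that rule on class totals, and 20% and 13% after median-ratio scaling. For IDD+HID against IDD, all 5 were at least 1.5-fold higher on class totals, where 64.6% of all measured genes were higher and 12% lower, so the count of 5 alone sets the members little apart. After median-ratio scaling 2 of the 5 (Alas1 and Cpox) were higher and 0 lower, where 25.1% of all measured genes were higher and 28.9% lower. Against IDD+HTF, all 5 were higher on class totals in IDD+HID, beside 62.5% of all genes (14.9% lower). After median-ratio scaling 2 (Urod and Cpox) were higher beside 26.4% of all genes, and 0 were lower beside 32.1%. The median log2 ratio of the 5 was 0.34, 1.47 and 1.35 in these comparisons on class totals, beside -0.02, 0.97 and 0.97 over all measured genes. The 2 comparisons with IDD share its 4 Alas1 UMIs and its cells.

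**Figure D2:**
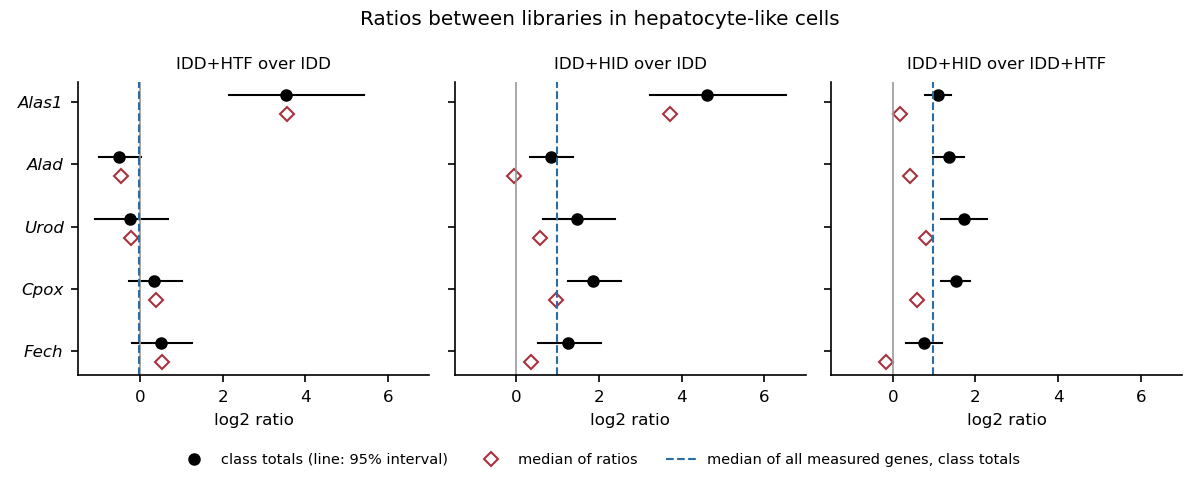
Log2 ratio of the 5 members with enough UMIs in hepatocyte-like cells, 1 panel a comparison. Black points and lines are ratios on class totals with 95% intervals, open diamonds the ratios after median-ratio scaling, and the dashed line is the median of all measured genes on class totals. Alas1 stood at 3.53 and 4.62 over IDD on class totals and at 3.56 and 3.73 after median-ratio scaling, while Alad turned from 0.85 to -0.05 in IDD+HID over IDD and Fech from 0.75 to -0.17 in IDD+HID over IDD+HTF.

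Hepatocyte-like cells fell into 3 clusters that the libraries filled unequally, so the members were also read within each. Cluster 2, led by Apob, Pigr and Vtn, held 126, 676 and 81 cells in the order IDD, IDD+HTF, IDD+HID. The cells of cluster 6, led by Fabp1, Bhmt and Rida, numbered 58, 199 and 174, and those of cluster 7, led by Apoa4, Hpx and Fgg, 61, 157 and 5. Cluster 2 thus made up most of the class in IDD (51.4%) and IDD+HTF (65.5%), and cluster 6 most of it in IDD+HID (66.9%). Within cluster 6, ribosomal RNA and repeats took 5.48%, 6.96% and 3.46% of UMIs, closer to one another than in the whole class.

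Most Alas1 RNA of the iron-treated hepatocytes was in cluster 6, with 71.3% of the class's Alas1 UMIs in IDD+HTF and 93.9% in IDD+HID. There Alas1 had 3, 139 and 138 UMIs, or 16.2 CPM (3.34 to 47.3) in IDD, 260 CPM (219 to 307) in IDD+HTF and 181 CPM (152 to 213) in IDD+HID. Within this cluster Alas1 was 16.1-fold higher in IDD+HTF than in IDD (5.38 to 78.8) and 11.1-fold higher in IDD+HID (3.73 to 54.7), or 14.5-fold and 8.56-fold after median-ratio scaling within the cluster. The order of the iron-treated libraries was the reverse of that in the whole class, with IDD+HID at 0.694-fold of IDD+HTF (0.545 to 0.885), or 0.591-fold after scaling. In cluster 2, Alas1 had 0 UMIs in IDD, where a floor of 3 counts is 11.4 CPM, 34 in IDD+HTF (20.9 CPM, 14.5 to 29.3) and 8 in IDD+HID (39.0 CPM, 16.8 to 76.9). Set against that floor, these were 1.84-fold and 3.42-fold higher, or 1.58-fold and 2.45-fold after median-ratio scaling within the cluster. The exact intervals on the count of 0 began at 1.41 and 2.19 on cluster totals. In cluster 7, Alas1 had 1 UMI in IDD and 22 in IDD+HTF, a 7.42-fold ratio (1.20 to 306) that rests on that 1 UMI. IDD+HID had 5 cells of cluster 7, too few to be set beside the others.

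Cpox divided the iron treatments within cluster 6. It had 3, 24 and 127 UMIs there, or 16.2 CPM (3.34 to 47.3), 44.9 CPM (28.8 to 66.8) and 166 CPM (139 to 198), and IDD+HID was 3.70-fold above IDD+HTF (2.38 to 5.99), or 3.15-fold after scaling. In cluster 2 the Cpox levels overlapped, at 49.5, 46.2 and 68.3 CPM on 13, 75 and 14 UMIs. The other members of cluster 6 were Alad at 75.6, 101 and 140 CPM, Urod at 54.0, 52.4 and 75.9 CPM, and Fech at 32.4, 52.4 and 78.5 CPM, each highest in IDD+HID. Only for Alad (1.06 to 3.50) and Fech (1.05 to 6.86) of these 3 did the fold interval of IDD+HID over IDD in cluster 6 exclude 1. By the 1.5-fold rule, 4 of 5 members were higher in cluster 6 in IDD+HID over IDD, beside 39.6% of all measured genes (8.5% lower). After median-ratio scaling within the cluster, 3 of 5 (Alas1, Cpox and Fech) were higher, beside 24% of all genes (20.2% lower). Against IDD+HTF, 1 of 5 (Cpox) was higher in IDD+HID and 0 lower on cluster totals (7.75% of all genes), beside 27.6% of all genes on cluster totals and 17.1% after median-ratio scaling. In IDD+HTF over IDD, 1 of 2 (Alas1, the other being Alad) was higher and 0 lower under either scaling, beside 20.6% and 8.42% of all genes on cluster totals and 14.5% and 12.8% after median-ratio scaling. After median-ratio scaling of IDD+HID over IDD+HTF, 1 (Alas1) was at least 1.5-fold lower, beside 14.2% of all genes. Cluster 2 had 0 of 2 measured members (Cpox and Fech) past 1.5-fold in IDD+HTF over IDD, beside 29.5% of all genes higher and 11.1% lower, and 0 of 2 in IDD+HID over IDD+HTF, beside 34.9% and 16.9%. Cluster 7 had 0 of 2 (Alad and Cpox) in IDD+HTF over IDD, beside 18.8% and 16.9%.

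**Figure D3:**
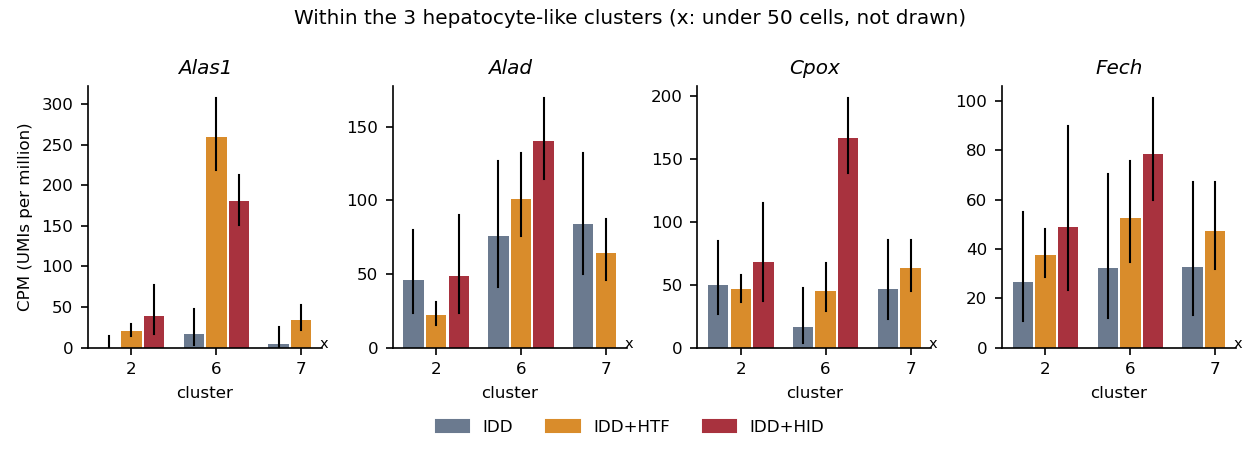
Alas1, Alad, Cpox and Fech in CPM within the 3 hepatocyte-like clusters, 1 bar a library, with exact Poisson 95% intervals as lines and an x where a library had under 50 cells of a cluster. Alas1 in cluster 6 stood at 16.2, 260 and 181 CPM and Cpox at 16.2, 44.9 and 166 CPM in IDD, IDD+HTF and IDD+HID, while in cluster 2 the Cpox intervals overlapped.

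The share of hepatocyte-like cells with an Alas1 UMI followed the same order as the levels. With each cell thinned to 1000 UMIs, the expected share was 0.389% (0.00844 to 2.22) in IDD, 5.62% (4.30 to 7.21) in IDD+HTF and 12.3% (8.58 to 16.9) in IDD+HID, by an approximate Clopper-Pearson interval. Unthinned, it was 1.63%, 11.6% and 28.5% at median depths of 2115, 2157.5 and 2247 UMIs a cell. Nucleated cells in general make heme, so free RNA was read from droplets instead of from a class without the gene. B-like cells had a thinned Alas1 share of 0.461%, 1.67% and 0.982%, and 2.20%, 5% and 4.99% unthinned at median depths of 4041, 3600.5 and 4567 UMIs a cell. For Alad the thinned hepatocyte shares were 6.07%, 4.16% and 11.6% (14.7%, 10.5% and 26.9% unthinned), and for Cpox 3.64%, 4.41% and 8.75% (10.2%, 11% and 25.4%). For Urod they were 2.12%, 1.87% and 4.65% (5.71%, 4.94% and 16.5%), and for Fech 3.81%, 4.23% and 6.28% (8.16%, 10.5% and 19.6%). In droplets of 100 or fewer UMIs, Fech was at 22.5 CPM (18.0 to 27.9), 33.4 CPM (26.2 to 42.0) and 33.5 CPM (26.8 to 41.4), so the intervals of hepatocytes and droplets overlapped in IDD and IDD+HTF and the Fech shares there are not set apart from free RNA. The droplet levels were 18.3, 18.3 and 24.0 CPM for Alad, 13, 18.3 and 19.3 CPM for Cpox, and 5.57, 11.0 and 12.2 CPM for Urod. For these 3 genes the droplet and hepatocyte intervals overlapped for Urod in IDD+HTF alone. No single cell carried the Alas1 counts: the cell with most held 10 of 195 in IDD+HTF and 17 of 147 in IDD+HID. The same cell of 82565 UMIs held the most Cpox (22 of 141), Urod (6 of 62) and Fech (8 of 71) in IDD+HID. Without the top cell of each library, IDD+HID over IDD on class totals was 29.3-fold for Alas1 and 3.59-fold for Cpox. It was then 3.12-fold for Urod and 2.42-fold for Fech. For Alas1 the cell taken out of IDD held 1 of 4 UMIs, as did each cell with a UMI there. The IDD count thus fell to 3, which raised the fold.

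Outside the hepatocytes few members were past 1.5-fold between libraries, and the same held for all measured genes beside the hepatocyte shares. In IDD+HID over IDD on class totals, 13.7% to 31.2% of all measured genes were higher across the other classes compared, beside 64.6% in hepatocyte-like cells. Alas1 was at 17.3, 21.7 and 25.3 CPM in sinusoidal endothelial-like cells, at 22.7, 26.9 and 22.5 CPM in Kupffer-like cells (the resident liver macrophages) and at 36.7, 20.7 and 30.7 CPM in stellate-like cells. B-like cells had 5.16, 15.7 and 10.6 CPM and T-like cells 16, 12.5 and 12.4 CPM. In IDD, Alas1 was therefore lower in hepatocytes than in Kupffer-like cells (0.266-fold, 0.0682 to 0.756) and than in stellate-like cells (0.164-fold, 0.0415 to 0.476). In the iron-treated libraries the order was the reverse: hepatocytes stood above Kupffer-like cells by 2.59-fold (2.10 to 3.2) in IDD+HTF and by 6.59-fold (5.29 to 8.20) in IDD+HID. Folds between classes are on class totals, since median-ratio scaling was run within each class only. Ribosomal RNA and repeats took 29.8%, 32.1% and 8.82% of hepatocyte-like UMIs and 6.84%, 4.60% and 3.21% of Kupffer-like UMIs. The part of this makeup in the folds was not tested. Hepatocyte RNA, estimated from hepatocyte markers in each class, would bring 0.0994, 1.61 and 3.09 CPM of Alas1 to sinusoidal endothelial-like cells. It would make up a larger part of the low levels in lymphocytes of IDD+HID: 53.1% of Alas1, 37.9% of Alad and 29.8% of Cpox in B-like cells and 27.9% of Alas1 in T-like cells.

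Alad separated the classes in another way. It was low in Kupffer-like cells in each library (8.31, 10.9 and 10.8 CPM) and stood near the hepatocyte level in the sinusoidal endothelium of IDD (62.3 CPM, 49.3 to 77.6) and IDD+HTF (40 CPM, 34.8 to 45.7). In sinusoidal endothelial-like cells Alad was 0.642-fold of IDD in IDD+HTF (0.494 to 0.842) and 0.746-fold in IDD+HID (0.587 to 0.957). Fech was higher in sinusoidal endothelial-like cells (77.3, 70.6 and 64.6 CPM) and stellate-like cells (77.9, 88.8 and 69.4 CPM) than in the hepatocytes of IDD and IDD+HTF. Hepatocyte Fech was 0.390-fold of the sinusoidal endothelial level in IDD (0.229 to 0.636), 0.603-fold in IDD+HTF (0.487 to 0.743) and 1.11-fold in IDD+HID (0.858 to 1.42). These folds too are on class totals. Ribosomal RNA and repeats took 11.1%, 7.04% and 4.84% of sinusoidal endothelial-like UMIs, beside the larger hepatocyte shares given above. Cpox was at 25.2, 33.1 and 24.8 CPM in sinusoidal endothelial-like cells and at 17.4, 21.3 and 25.1 CPM in Kupffer-like cells. Ppox was at 14.2, 14.4 and 10.9 CPM in sinusoidal endothelial-like cells and at 12.1, 11.9 and 10.8 CPM in Kupffer-like cells. Uros in Kupffer-like cells was at 11.3, 8.41 and 5.72 CPM. Abcb6 had 1 to 6 UMIs in each library of sinusoidal endothelial-like and of Kupffer-like cells.

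By the 1.5-fold rule on class totals, sinusoidal endothelial-like cells had 1 member higher (Urod) and 1 lower (Alad) of 6 in IDD+HTF over IDD, beside 9.95% and 9.91% of all measured genes. They had 1 of 7 higher in IDD+HID over IDD (Urod, 1.65-fold, 1.04 to 2.79) and 0 lower, beside 14.3% and 19.3%. Another 1 of 7 was higher in IDD+HID over IDD+HTF (Uros, 1.86-fold, 1.02 to 3.62) and 0 lower, beside 4.92% and 11.8%. Kupffer-like cells had 0 of 7 higher or lower in IDD+HTF over IDD, beside 13.5% and 5.75%. They had 0 of 7 higher and 1 lower (Uros, 0.505-fold, 0.280 to 0.967) in IDD+HID over IDD, beside 16.8% and 8.27%. None, 0 of 7, was higher or lower in IDD+HID over IDD+HTF, beside 6.64% and 7.49%. Stellate-like cells had 1 of 3 lower in IDD+HTF over IDD (Alas1, 0.564-fold, 0.317 to 1.01) beside 10.7% of all genes, with 0 higher beside 24%. They had 0 of 4 in IDD+HID over IDD, beside 31.2% higher and 16.3% lower, and 0 of 5 in IDD+HID over IDD+HTF, beside 8.84% and 8.62%. T-like cells had Fech higher, 1 of 4, in IDD+HID over IDD (1.77-fold, 0.927 to 3.71) beside 13.7% (0 lower, 9.33%), and Cpox higher, 1 of 4, in IDD+HID over IDD+HTF (2.11-fold, 1.07 to 4.64) beside 14.9% (0 lower, 5.85%). B-like cells had Cpox lower, 1 of 2, in IDD+HID over IDD (0.638-fold, 0.322 to 1.38) beside 8.58% (0 higher, 18.8%), and 0 of 3 in IDD+HID over IDD+HTF beside 14.2% higher and 5.72% lower. Alas1 had too few UMIs to be measured in B-like cells (2, 11 and 24 in IDD, IDD+HTF and IDD+HID) and T-like cells (9, 9 and 24). In sinusoidal endothelial-like, Kupffer-like and stellate-like cells it was nowhere at least 1.5-fold higher over IDD on class totals. Its largest such fold was 1.46 (0.944 to 2.36), in the sinusoidal endothelium in IDD+HID. That value was 0.54 on the log2 scale and 0.59 after median-ratio scaling, just past 1.5-fold.

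**Figure D4:**
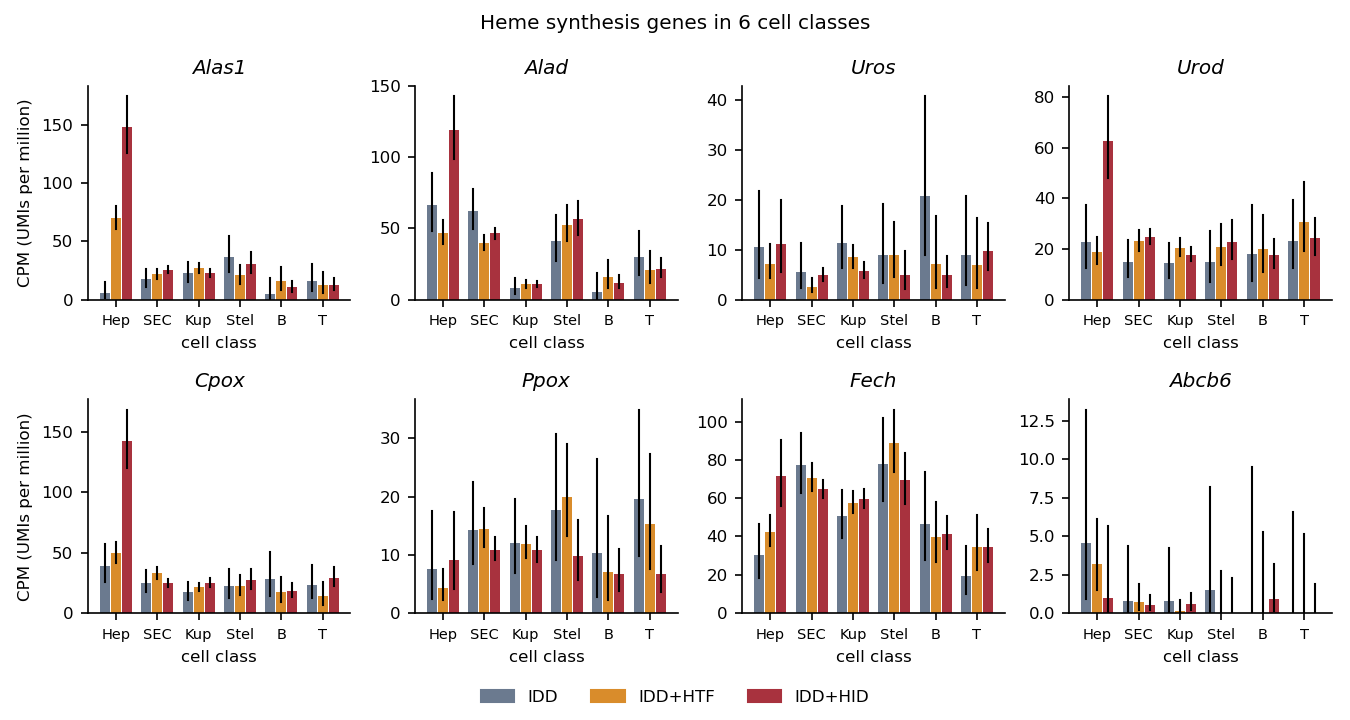
Each of the 8 genes in CPM in hepatocyte-like (Hep), sinusoidal endothelial-like (SEC), Kupffer-like (Kup), stellate-like (Stel), B-like (B) and T-like (T) cells, 1 bar a library, with exact Poisson 95% intervals as lines. The bars show class totals: Alas1, Urod and Cpox in IDD+HID hepatocytes (149, 62.7 and 143 CPM) stood above every other bar of their panels, and Fech was highest in stellate-like cells (88.8 CPM in IDD+HTF).

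Hepatocytes along the liver lobule were ranked within each library by the share of pericentral markers among zonal marker UMIs and divided into 3 equal ranges (pericentral, middle, periportal). The rank was coarse, with a median of 6, 5 and 13 marker UMIs a cell, and 159 of 237, 556 of 1001 and 115 of 260 cells lay within 0.05 of a boundary. In IDD+HTF, Alas1 in the pericentral range was 0.495-fold of the periportal range (33 against 71 UMIs, 0.317 to 0.758), and in IDD+HID it was 1.18-fold (48 against 52 UMIs, 0.782 to 1.79). IDD had 0 and 1 Alas1 UMIs in these ranges, too few for a ratio. Cpox was 1.32-fold pericentral in IDD+HTF (0.840 to 2.10) and 1.69-fold in IDD+HID (1.10 to 2.60), and Alad was 0.615-fold (0.364 to 1.02) and 1.56-fold (1.01 to 2.42). Fech was 1.83-fold in IDD+HTF (1.09 to 3.13) and 0.974-fold in IDD+HID (0.507 to 1.84). With 2 ranges in place of 3, Alas1 was 0.750-fold (0.556 to 1.01) in IDD+HTF and 0.978-fold in IDD+HID. Fech in IDD+HTF was then 1.41-fold (0.964 to 2.07), and in IDD+HID Cpox was 1.40-fold (0.991 to 1.98) and Alad 1.39-fold (0.95 to 2.03). For these 4 genes each interval that excluded 1 with 3 ranges held 1 with 2, while that of Alad in IDD+HTF (0.661-fold, 0.456 to 0.951) excluded 1 with 2 ranges alone. The ranges are not cell types.

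Genes that feed or surround the pathway were read in the same hepatocyte-like cells, from lists chosen for function with earlier results of these data known. The shares of all measured genes given above for the members apply to these lists too: 18.9% higher and 14.2% lower in IDD+HTF over IDD, 64.6% and 12% in IDD+HID over IDD, and 62.5% and 14.9% in IDD+HID over IDD+HTF on class totals. After median-ratio scaling they were 20% and 13%, 25.1% and 28.9%, and 26.4% and 32.1%. Of 18 genes of substrate supply and mitochondrial partners, 12 were measured in IDD+HID over IDD, with 7 higher and 0 lower on class totals, and 3 higher and 3 lower after median-ratio scaling, beside 64.6% of all genes higher on totals and 25.1% after scaling, so the counts were near the background. The 3 higher under both were Suclg1 (4.00-fold, 3.12 to 5.20, or 2.15-fold after scaling) and Sucla2 (3.27-fold, 2.25 to 4.88, or 1.76-fold), subunits of the enzyme that handles succinyl-CoA, and Clpx (3.35-fold, 2.56 to 4.45, or 1.80-fold), the mitochondrial unfoldase that acts on ALAS. In IDD+HTF over IDD, 1 of 13 was higher and 2 were lower, under either scaling. Tmem14c, which carries porphyrin precursors in mitochondria, was among the lower genes (0.532-fold, 0.408 to 0.699), and the higher one was Lonp1, a mitochondrial protease (1.53-fold, 0.806 to 3.2). Against IDD+HTF, 11 of 14 were higher in IDD+HID and 0 lower on class totals, and 4 higher and 3 lower after median-ratio scaling.

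Alas2, the erythroid form of the first enzyme, was read in hepatocyte-like cells at 34.7, 14.3 and 30.3 CPM on 23, 40 and 30 UMIs. IDD+HTF was thus the lowest on class totals, at 0.412-fold of IDD (0.241 to 0.722), or 0.421-fold after median-ratio scaling, opposite to Alas1. The log2 ratio of Alas2 in IDD+HID over IDD was -0.19 on class totals and -1.09 after median-ratio scaling. In IDD+HID over IDD+HTF it was 1.08 and 0.16, so the place of IDD+HID depended on the scaling. The globin genes Hba-a1, Hba-a2, Hbb-bs and Hbb-bt were at 0 in the hepatocyte-like cells of IDD and IDD+HID, as were the erythroid markers Slc4a1, Hemgn and Tspo2.

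Among 20 heme proteins of hepatocytes, 17 were measured in IDD+HID over IDD, with 12 higher and 2 lower on class totals, and 8 higher and 5 lower after median-ratio scaling, beside 64.6% and 12%, and 25.1% and 28.9%, of all genes. The cytochromes P450 Cyp4a10 and Cyp4a14 had 145 and 103 UMIs in IDD+HID and 0 in IDD. Against a floor of 3 counts they were 32.4-fold and 23.0-fold higher (17.4-fold and 12.4-fold after median-ratio scaling). Their exact intervals on the count of 0 began at 26.0 and 18.4 on class totals. Cyp3a11, a drug-metabolising P450, had 1 UMI in IDD, 75 in IDD+HTF (17.8-fold, 3.10 to 712) and 79 in IDD+HID (53.0-fold, 9.23 to 2118, or 28.4-fold after scaling). Cyp2e1 was at 125, 320 and 910 CPM, 2.56-fold higher in IDD+HTF (2.04 to 3.24) and 7.27-fold higher in IDD+HID (5.80 to 9.22, or 3.90-fold after scaling) than in IDD. The 10 pericentral markers, Cyp2e1 and Cyp2c29 among them, summed to 478, 663 and 2071 CPM in hepatocyte-like cells of the 3 libraries and the 10 periportal markers to 2833, 2281 and 4074 CPM. The part of this zonal makeup in the P450 values was not tested. Cyb5a, the cytochrome b5, was 7.05-fold higher in IDD+HID (6.25 to 7.97, or 3.78-fold after scaling), and Cyp8b1, of bile acid synthesis, was 0.273-fold (0.201 to 0.368, or 0.147-fold). In IDD+HTF over IDD, 3 of 15 were higher and 3 lower under either scaling, with Cyp2c29 the third higher gene (1.73-fold, 1.17 to 2.64) and Cycs (0.521-fold), Cyp8b1 (0.559-fold) and Cyp27a1 (0.629-fold) the lower ones. Against IDD+HTF, 13 of 17 were higher in IDD+HID and 2 lower on class totals, and 7 higher and 3 lower after median-ratio scaling.

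Of 13 regulators of Alas1 transcription in liver, 6 were measured in IDD+HTF over IDD, with 2 higher and 0 lower under either scaling, beside 18.9% and 14.2% of all genes on class totals. These were Cebpb, a factor of the acute and fasting response (1.59-fold, 1.16 to 2.21), and Esrra, a nuclear receptor of mitochondrial genes (1.54-fold, 0.727 to 3.76). In IDD+HID over IDD, 2 of 4 were higher and 0 lower on class totals, and 1 (Cebpb, 3.12-fold, 2.26 to 4.39, or 1.68-fold after scaling) higher and 2 lower after median-ratio scaling, beside 64.6% and 12% of all genes on totals. Against IDD+HTF, 3 of 7 were higher in IDD+HID and 2 lower on class totals, and 0 higher and 4 lower after median-ratio scaling, with Esrra (0.326-fold, 0.114 to 0.759, or 0.171-fold after scaling) and Foxo1 (0.385-fold, 0.134 to 0.908, or 0.203-fold) lower under both, beside 62.5% and 14.9% of all genes on totals. Ppargc1a, the coactivator that links fasting to Alas1, had 3, 20 and 3 hepatocyte UMIs, too few to be measured. Of 8 heme transport and breakdown genes, 2 were measured in IDD+HID over IDD, both higher on class totals and 1 after median-ratio scaling: Blvrb, a biliverdin reductase (4.94-fold, 3.30 to 7.69, or 2.65-fold), where 64.6% of all genes were higher on totals and 25.1% after scaling. In IDD+HTF over IDD 0 of 2 were higher or lower. Against IDD+HTF, 3 of 3 were higher in IDD+HID on class totals and 2 after median-ratio scaling, Hmox2 (5.95-fold, 3.37 to 10.9, or 3.13-fold) and Blvrb (4.73-fold, 3.75 to 5.98, or 2.48-fold), where 62.5% of all genes were higher on totals and 26.4% after scaling.

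Over the 24 pairs of class and library with at least 50 cells, the gene most like each member in log2(CPM + 5) among 13433 genes was Chp1 for Alas1 (Pearson r 0.78), Rnase4 for Alad (0.92) and Decr1 for Cpox (0.89). For Urod it was Lonp2 (0.83), for Fech F830016B08Rik (0.90), for Uros Mrpl16 (0.62) and for Ppox Raver2 (0.76). Abcb6, with 36 UMIs over these pairs, was left out. Between members, r was highest for Urod with Cpox (0.66), Alad with Cpox (0.65) and Alas1 with Cpox (0.58), and lay near 0 for Alas1 with Ppox (-0.07) and with Uros (-0.02). These values describe pairs that share libraries, depth and mice.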

How the data were processed

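Liver cells of 3 mice were profiled with a 10x Genomics 3′ kit, 1 library a group. Per the labels and from the values, the deposited matrices hold raw UMI counts per barcode and gene without a filter on barcodes. The build GRCm38 and Seurat 4 are named in the submitters' processing notes; an aligner or counter is not given in the sources used here. Symbols were joined by gene identifier. No other column of per-sample values was present.

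Kept as cells were barcodes of 1000 UMIs or more, 300 genes or more and no more than 20% mitochondrial UMIs. Scrublet (expected rate 6%) called and removed 1.72%, 0.156% and 0.197% of cells; a caller marking so few in IDD+HTF and IDD+HID has not worked there, so doublets remain. Clustering used scanpy 1.11.5 (2000 variable genes without the members and pathway lists, 30 components, 15 neighbours, Leiden resolution 1), giving 23 clusters. A cluster was called X-like where the mean log2 enrichment of 1 of 19 marker lists (pseudocount 20 CPM) was at least 1 and led the next by 0.5. These limits came from earlier work on the same data. A cluster also needed at least 3 markers of its list detected, and no other list with more markers among its most enriched genes. Where its depth was low for its libraries, it needed a marker of its list among those genes. With these rules 4 clusters stayed unnamed. Cell classes rest on these rebuilt names. The 6 classes with at least 50 cells in each library were compared.

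UMIs were summed per class and library. Levels carry exact Poisson 95% intervals and ratios exact conditional binomial 95% intervals. A count of 0 was set to 3 counts to form a ratio. Genes with at least 50 UMIs in a pair were measured. Ribosomal RNA was taken by annotation and the repeat genes by hand. With 1 mouse a group no test was run, and the ratio intervals were tested on simulated data. The members and lists were chosen with earlier results of these data known. Named pathway genes are up to 6 a list and comparison that were past 1.5-fold the same way under both scalings; like genes needed 200 UMIs. Ppargc1a was named after its values were seen. Single values of some listed genes are not reported here. Alternatives covered scaling (edgeR 4.0.16 TMM included), cell filters, clustering, free RNA, thresholds and thinning.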

Additional observations from a re-analysis of the deposited data

Results flagged for a closer look

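Droplets of more than 100 and fewer than 500 UMIs, which entered no comparison between cells, held members at least 1.5-fold above IDD with an interval above 1: 5 of 6 measured in IDD+HTF and 4 of 6 in IDD+HID. Of all genes measured there, 67.1% and 74.4% passed the same rule, so these counts are near the background, and the median log2 ratio of all genes was 0.85 and 1.07. Alas1 was at 2.21 CPM in IDD on 16 UMIs, at 17.4 CPM in IDD+HTF (7.89-fold, 4.76 to 14.0) and at 11.3 CPM in IDD+HID (5.12-fold, 3.06 to 9.19). Cpox was 2.19-fold (1.70 to 2.85) and 2.06-fold (1.59 to 2.69) of its 10.5 CPM in IDD, and Alad 1.54-fold (1.17 to 2.05) and 1.98-fold (1.51 to 2.62) of its 9.52 CPM. Ppox was 3.04-fold (1.54 to 6.66) and 3.05-fold (1.55 to 6.71) of its 1.38 CPM on 10 UMIs. Fech was 2.25-fold (1.77 to 2.89) of its 11.5 CPM in IDD+HTF and 1.44-fold (1.11 to 1.88) in IDD+HID, and Urod 1.11-fold (0.720 to 1.75) and 1.21-fold (0.785 to 1.89). What the droplets held was not tested.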

How the results depend on the processing

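Of 19 other settings, and 4 more chosen after seeing the data (each hepatocyte-like cluster alone, and only cells of at most 4000 UMIs), Alas1 kept its direction over IDD wherever a value could be had: log2 3.2 to 4.74 over 17 settings in IDD+HTF and 3.48 to 6.07 over 16 in IDD+HID. The log2 ratio of Alas1 in IDD+HID over IDD+HTF (1.09) turned to -0.53 in cluster 6 alone, and was 0.16 with the median of ratios, 0.06 with TMM, 0.63 on totals without mitochondrial genes, ribosomal RNA and repeats, 0.39 without the 50 most abundant genes and 0.77 with at least 500 UMIs a cell. Alad in IDD+HID over IDD turned to -0.05 with the median of ratios and -0.09 with TMM, and Fech in IDD+HID over IDD+HTF to -0.17 and -0.28.

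The count of higher members in IDD+HID over IDD was 2 with the median of ratios, 2 with TMM, 3 without the 50 most abundant genes and 3 in cells of at most 4000 UMIs. In IDD+HID over IDD+HTF it was 2, 1 and 3 under the first 3 of these, 1 with at least 500 UMIs, 0 in cluster 2 and 1 in cluster 6. In IDD+HTF over IDD it was 2 with TMM, at least 2000 UMIs or at most 40% mitochondrial UMIs, 3 at a lower fold threshold, and 0 in clusters 2 and 7. The count of lower members there was 1 with at least 500 UMIs, at most 10% mitochondrial UMIs, at least 3% of UMIs from hepatocyte markers, no minimum of UMIs or the lower fold threshold, and in IDD+HID over IDD+HTF 1 with no minimum. The cause of these shifts was not tested.

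With at least 500 UMIs, 2 clusters nearest to the hepatocyte markers stayed unnamed and IDD+HID over IDD gave no value, nor did that comparison in cluster 2, nor IDD+HID in cluster 7. No paired analysis was possible because each group has 1 library. Depth limited Uros, Ppox and Abcb6, which had 1 to 20 hepatocyte UMIs a library.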
